A study of Arabidopsis thaliana with 4 samples.

Results

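The genes described here are 96 nuclear Arabidopsis thaliana genes that the reference table knows only by a locus code (AT1G to AT5G followed by a serial number) and whose transcripts read lower in seedlings that over-express the rice gene OsRR6. A gene was taken if its probe set, the group of probes that reports 1 transcript on the array, stands for that gene alone and if the lower of the wild type values exceeded the higher of the OsRR6ox values by at least 0.8 on the deposited log2 scale. A difference of 1 on this scale is a 2-fold change. They are 96 of 11798 locus-coded genes with a probe set of their own, and of 13355 genes of any name. Another 5 locus-coded genes met the same gap but are among 10 loci that the rule leaves out.

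RNA was measured in whole 10-day-old seedlings of accession Col-0 on 4 Affymetrix arrays. There were 2 arrays of OsRR6ox, a transgenic line over-expressing OsRR6, and 2 of the wild type, and the submitters call the samples of each genotype biological replicates. All seedlings grew untreated on MS medium under white light in long days. Which promoter drives OsRR6 and how many independent lines were made remain not given in the sources used here. The labels name 1 line. In RNA from whole seedlings, fewer cells that express a gene and less of its RNA per cell cannot be told apart.

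OsRR6 is a type-A response regulator. In cytokinin signalling, membrane receptors pass phosphoryl groups through carrier proteins to response regulators in the nucleus, where the type-B members bind DNA and the type-A members, which hold little more than the receiver domain, mostly dampen the response. The genes described here were grouped by the form of their names and by their values, not by a pathway. Where a protein type is named below it is general background on the Arabidopsis protein, since the reference table used here lists no function for these loci, apart from the synonym peroxidase 25 for AT2G41480. Such a type was given to 43 of the 96 genes.

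Because the gap between genotypes chose the genes, their differences are a description and were not tested. The median over the 96 genes was -1.45, OsRR6ox minus wild type, where the median of all locus-coded probe sets was -0.04. The single differences ran from -5.67 to -0.86. In 19 genes the values were at least 4-fold lower, in 73 they were between 2-fold and 4-fold lower, and in 4 less than 2-fold lower. On the separate arrays the median of the 96 genes was 5.50 and 5.54 in OsRR6ox, against 7.36 and 7.16 in the wild type. Among all locus-coded probe sets of the same array, this median stood at percentile 44.3 and 45.0 in OsRR6ox, and at percentile 66.0 and 64.0 in the wild type. By wild type mean, 34 of the 96 genes lay in the highest 25% of the locus-coded probe sets, 28 lay below the median of these probe sets, and 0 lay in the lowest 25%, where the rule leaves little room for a gap.

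**Figure D1:**
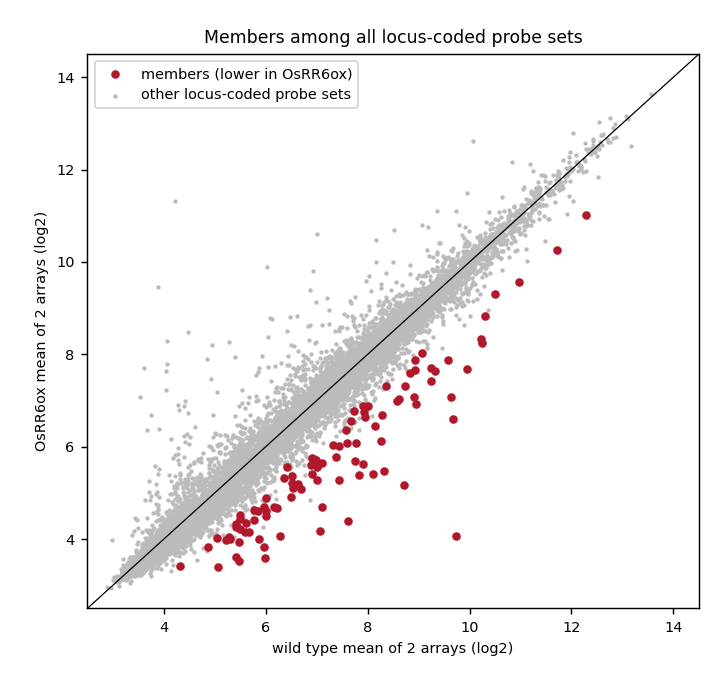
Mean log2 value in OsRR6ox (vertical axis) against the wild type mean (horizontal axis) for the locus-coded probe sets the rule could take, with the 96 members in red and the line of equal values in black. The members lie below the line over nearly the whole range of wild type levels, from 4.32 to 12.28.

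In the fit across all 22746 probe sets, 0.488% were called lower in OsRR6ox (limma, Benjamini-Hochberg adjusted p under 0.05) and 0.813% higher. Of the 96 genes, 54 were among those called lower. The rule used the same contrast, so nothing is read from this count. Of all probe sets, 0.901% met the gap of 0.8 towards lower values and 1.27% towards higher values. The mirrored rule found 142 locus-coded genes higher in OsRR6ox. Among genes with another symbol, 22 of 1557 met the gap towards lower values, which is 1.41% of them, against 0.856% of the locus-coded genes. Both shares follow from the same values and were not tested against each other.

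For each array the 25% of probe sets with the lowest values were called background, which ended at 4.45 and 4.41 on the OsRR6ox arrays and at 4.49 and 4.52 on the wild type arrays. Of the 96 genes, 20 lay at background on both OsRR6ox arrays and 7 on 1 of them, whereas 69 stayed above it on both. In the wild type a single gene, the pseudogene AT3G33066, lay at background on both arrays. For the genes at background in OsRR6ox the printed difference may understate the change. That is 20.8% of the 96 genes at background on both OsRR6ox arrays. In the mirrored set of genes higher in OsRR6ox, 30.6% of the probe sets lay at background on both wild type arrays. Both sets were chosen by these values, and the shares were not tested against each other.

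The widest gap belonged to AT3G48640, for which no protein type is given here. It read 4.25 and 3.87 in OsRR6ox, against 9.95 and 9.50 in the wild type, a difference of -5.67, which is 50.8-fold lower in OsRR6ox. Both OsRR6ox values lay at background, while both wild type values lay well above the array medians of 6.71 to 6.81. AT5G15360 read 4.46 and 4.32 in OsRR6ox and 7.63 and 7.59 in the wild type, 9.31-fold lower in OsRR6ox. Of the OsRR6ox values of AT5G15360, 4.46 lay just above background and 4.32 within it.

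AT3G28270 encodes an At14a-like protein, a plant family whose name goes back to a protein with similarity to animal integrins. Its values were 5.77 and 4.59 in OsRR6ox and 8.59 and 8.85 in the wild type, a difference of -3.54. The OsRR6ox arrays differed from each other by more than 1 unit here, yet both stayed below both wild type arrays. Of 5 listed At14a-like genes 3 were measured, AT3G28270 among them. AT3G28320 differed by -0.26 (limma adjusted p = 0.411) and AT3G28310 by 0.24 (limma adjusted p = 0.546). Values of both genes lay near background on all arrays, which leaves little room for a lower value.

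AT2G35820 encodes a ureidoglycolate hydrolase-type protein, a name that comes from the breakdown of purines, in which allantoin and allantoate yield their nitrogen. It read 6.58 and 6.63 in OsRR6ox, against 9.62 and 9.71 in the wild type, 8.32-fold lower in OsRR6ox. The replicates of each genotype lay within 0.1 of each other, and the gap by which the rule chose the gene was 2.99. Of 9 listed genes of purine and ureide breakdown 4 were measured, AT2G35820 among them. The other 3 carry gene symbols, so the rule could not choose them. Their means were lower in OsRR6ox with a median of -0.74, and 0 of them passed. Over all probe sets the median was -0.04, and 57.7% had a lower mean in OsRR6ox. The allantoate amidohydrolase gene AAH read 7.43 and 7.73 in OsRR6ox and 8.74 and 9.41 in the wild type, a difference of -1.49 that did not pass (limma adjusted p = 0.0830). For the allantoinase gene ALN the values were 6.68 and 6.58 in OsRR6ox and 7.55 and 7.18 in the wild type (limma adjusted p = 0.142). UGLYAH, which encodes ureidoglycolate amidohydrolase, differed by -0.06 (limma adjusted p = 0.877).

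AT2G40960, an R3H-domain protein of the nucleic acid-binding kind, stood at 5.46 and 5.47 in OsRR6ox and at 8.24 and 8.42 in the wild type, a difference of -2.86. AT2G24550 stood at 7.05 and 7.10 in OsRR6ox and at 9.71 and 9.55 in the wild type, a difference of -2.55. Both remained above background in OsRR6ox, so their differences were measured on both sides. AT3G60420, a phosphoglycerate mutase-like protein, read 5.46 and 5.35 in OsRR6ox and 8.00 and 8.21 in the wild type, 6.47-fold lower in OsRR6ox. A second probe set of AT3G60420 lay at background on all arrays, with 3.60 and 3.65 in OsRR6ox and 3.66 and 3.74 in the wild type, so it neither shows nor contradicts the difference of the first.

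**Figure D2:**
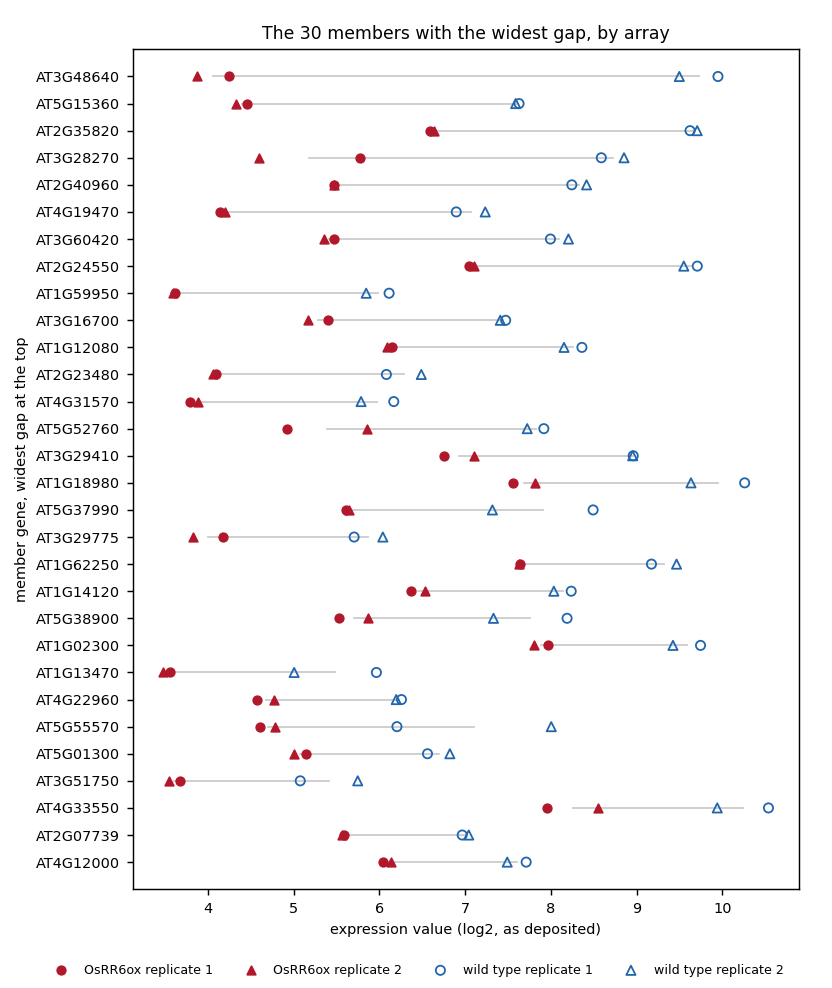
Log2 values on each array for the 30 members with the widest gap, with OsRR6ox as filled red and the wild type as open blue symbols (circles for replicate 1, triangles for replicate 2) and a grey line between the genotype means. The wild type replicates of AT5G55570 and AT5G37990 lie further apart than those of most other genes, and AT3G28270 has the widest spread in OsRR6ox.

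Enzymes of small-molecule metabolism were the largest group with a protein type, 13 genes with a median of -1.69. In 3 of them both OsRR6ox arrays lay at background. How common each protein type is among all locus-coded genes was not counted, so nothing is read from the group sizes here or below. AT1G59950, of the aldo-keto reductase type, read 3.61 and 3.59 in OsRR6ox, against 6.11 and 5.84 in the wild type. AT3G16700, of the fumarylacetoacetate hydrolase type, read 5.39 and 5.16 in OsRR6ox and 7.47 and 7.41 in the wild type. AT3G29410, related to terpene synthases, which make volatile and other isoprenoid compounds, read 6.75 and 7.10 in OsRR6ox and 8.96 and 8.95 in the wild type. In each of these 3 genes the gap, by which the rule chose them, was several times wider than the distance between replicates.

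AT1G14120 and AT3G46500 are of the 2-oxoglutarate-dependent dioxygenase type, iron enzymes that oxidise many plant hormones and metabolites. AT1G14120 stood at 6.37 and 6.53 in OsRR6ox, against 8.24 and 8.03 in the wild type. AT3G46500 stood at 4.34 on both OsRR6ox arrays, which is background, and at 5.66 and 5.55 in the wild type. AT1G48670 is of the GH3 type, a family that joins amino acids to hormones, and read 4.62 and 4.37 in OsRR6ox and 6.18 and 5.84 in the wild type.

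AT2G41480 and AT5G15180 encode class III peroxidases, secreted enzymes that act on cell wall phenolics and on hydrogen peroxide. AT2G41480 read 5.72 and 5.82 in OsRR6ox and 7.73 and 7.02 in the wild type. AT5G15180 read 4.26 and 4.03 in OsRR6ox, at background, and 6.01 and 5.33 in the wild type. In both genes wild type replicate 1 was the higher of the wild type arrays. The smallest differences of this group belonged to AT1G24430, of the BAHD acyltransferase type, at -1.15, and AT3G46500 at -1.27, and AT1G01390, of the UDP-glycosyltransferase type, stood at -1.43.

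Small secreted proteins of the bifunctional inhibitor and lipid-transfer type gave 5 genes with a median of -1.57. This type is a large family of cysteine-rich proteins of the cell surface. Apart from AT5G13900 they were bright. AT3G53980 read 10.85 and 11.18 in OsRR6ox, against 12.38 and 12.18 in the wild type, and has the highest level of the 96. AT4G33550 read 7.96 and 8.55 in OsRR6ox and 10.54 and 9.94 in the wild type. AT2G37870 read 8.15 and 8.51 in OsRR6ox and 10.71 and 9.73 in the wild type. Wild type replicate 1 was above replicate 2 in all of these, by 1.06 in AT3G58550, which read 6.99 and 7.01 in OsRR6ox and 9.10 and 8.04 in the wild type. The fifth, AT5G13900, was dim, with means of 4.44 in OsRR6ox and 5.49 in the wild type.

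Lectin-type and chitinase-type proteins, which bind or cut carbohydrates, gave 4 genes that differed by -1.43 to -1.18. The chitinase-type gene AT2G43620 read 9.72 and 9.42 in OsRR6ox, against 11.13 and 10.82 in the wild type. Of the legume lectin-type genes, AT5G03350 read 5.17 and 5.03 in OsRR6ox and 6.76 and 6.29 in the wild type. AT3G16530 averaged 9.31 ± 0.11 in OsRR6ox and 10.49 ± 0.42 in the wild type (SD, n = 2 each), and AT1G53080 averaged 4.41 ± 0.29 in OsRR6ox and 5.76 ± 0.24 in the wild type (SD, n = 2 each). The bright and dim genes among these 4 thus differed by similar amounts, though each was chosen by a gap of at least 0.8. AT2G43610, which lies close to AT2G43620 on chromosome 2, had a higher mean in OsRR6ox, with 10.15 and 10.12, against 9.38 and 9.02 in the wild type, and did not pass (difference 0.94, limma adjusted p = 0.0832).

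Genes of the receptor, kinase or resistance type numbered 4, and 3 of them lay at background on both OsRR6ox arrays. AT4G19470, a leucine-rich repeat protein, read 4.14 and 4.20 in OsRR6ox and 6.90 and 7.23 in the wild type, 7.43-fold lower in OsRR6ox. AT1G51830, a leucine-rich repeat receptor-like kinase, read 4.86 and 4.96 in OsRR6ox and 6.76 and 6.22 in the wild type. Such kinases span the cell membrane and relay outside signals. The kinase gene AT5G59650 and the NBS-LRR resistance-type gene AT1G59780 differed by -1.29 and -1.30 from wild type means of 5.50 and 5.30.

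Proteases, their inhibitors and cell wall proteins made up 4 bright genes, with wild type means between 9.25 and 10.30. The germin-like gene AT1G18980 read 7.56 and 7.81 in OsRR6ox, against 10.26 and 9.64 in the wild type. AT1G02300, a cathepsin B-type cysteine protease, read 7.97 and 7.80 in OsRR6ox and 9.75 and 9.43 in the wild type. AT5G47550 encodes a cystatin-type protein, an inhibitor of cysteine proteases, and read 9.05 and 8.62 in OsRR6ox and 10.22 and 10.39 in the wild type. The rule chose this protease gene and this gene of an inhibitor type for being lower, so nothing is read from their pairing. AT1G02305, directly next to AT1G02300, read 10.24 and 10.01 in OsRR6ox and 10.21 and 9.66 in the wild type. Its difference of 0.19 did not pass (limma adjusted p = 0.754). AT1G62770, of the invertase and pectin methylesterase inhibitor type, read 7.84 and 7.02 in OsRR6ox and 9.58 and 8.92 in the wild type.

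**Figure D3:**
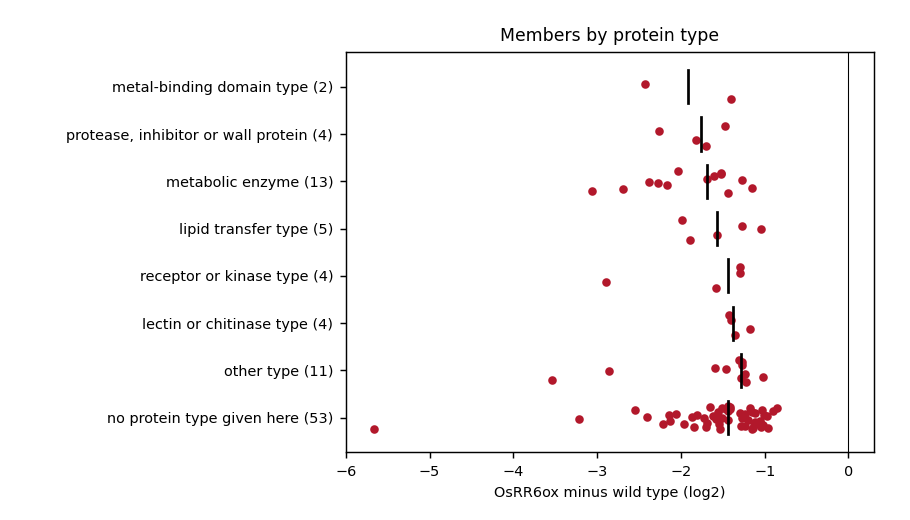
OsRR6ox minus wild type difference (log2) of each of the 96 members, 1 point each, grouped by protein type with the number of genes in brackets and the group median as a black bar. The group medians lie between -1.92 and -1.29, and the widest difference, -5.67, belongs to a gene without a protein type.

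Genes of other protein types were bright or dim, with wild type means from 5.84 in AT1G07740 to 11.72 in AT5G20700. AT5G20700, an FLZ zinc-finger protein, read 10.31 and 10.19 in OsRR6ox and 11.94 and 11.49 in the wild type. AT1G14960, a Bet v 1-like protein of the major latex type, read 6.86 and 7.20 in OsRR6ox and 9.10 and 8.14 in the wild type. The VQ-motif gene AT1G78410 and the GRAM-domain gene AT5G13200 differed by -1.27 and -1.31. F-box proteins choose targets for ubiquitin-dependent breakdown, and the F-box gene AT4G27050 read 7.71 and 7.49 in OsRR6ox and 8.95 and 8.73 in the wild type. The pentatricopeptide-repeat gene AT1G07740 differed by -1.23. A probe set that AT1G07740 shares with AT1G07730 read 5.03 and 5.57 in OsRR6ox and 4.93 on both wild type arrays (limma adjusted p = 0.479). Its signal may come from either gene.

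Among genes with no protein type given, AT1G12080 read 6.14 and 6.09 in OsRR6ox, against 8.36 and 8.15 in the wild type. AT1G62250 read 7.64 and 7.62 in OsRR6ox and 9.17 and 9.47 in the wild type. AT4G31570 read 3.79 and 3.89 in OsRR6ox, at background, and 6.17 and 5.78 in the wild type. In all of these the replicates lay close together beside the gap. AT5G55570 read 4.60 and 4.79 in OsRR6ox and 6.20 and 8.00 in the wild type, where replicate 1 minus replicate 2 of the wild type was -1.80. AT1G13470 averaged 3.52 ± 0.05 in OsRR6ox and 5.48 ± 0.68 in the wild type (SD, n = 2 each), and AT5G38900 read 5.53 and 5.87 in OsRR6ox and 8.19 and 7.33 in the wild type. The size of the difference in these 3 genes depends on which wild type array is used.

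AT4G22960 read 4.57 and 4.77 in OsRR6ox and 6.26 and 6.20 in the wild type. AT5G01300 read 5.14 and 5.01 in OsRR6ox and 6.56 and 6.82 in the wild type. AT4G12000 read 6.04 and 6.14 in OsRR6ox and 7.71 and 7.49 in the wild type. These 3 genes went with differences of -1.51 to -1.62 and little spread. AT3G51750 read 3.67 and 3.54 in OsRR6ox, at background, and 5.08 and 5.75 in the wild type. The 66 genes with narrower gaps than the 30 of the plot by array differed by -1.89 to -0.86, with wild type means from 4.32 to 12.28.

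Of the 96 loci 92 are protein-coding by the reference table. The other 4 are pseudogenes, which is 4.17%, against 7.73% of the locus-coded probe sets. The pseudogene AT2G23480 read 4.10 and 4.06 in OsRR6ox and 6.08 and 6.49 in the wild type. AT3G29775 read 4.17 and 3.83 in OsRR6ox and 5.70 and 6.04 in the wild type. Both lay at background in OsRR6ox, as did the pseudogenes AT3G32080 and AT3G33066. In 4 of the 96 the probe set name marks probes that can match more than 1 transcript. These are AT2G23480, AT3G33066, AT2G07739 and AT2G07707, and for them the source of the signal is uncertain.

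AT2G07739 and AT2G07707 carry codes from the stretch of chromosome 2 that holds a copy of the mitochondrial genome, so transcripts of nucleus and mitochondrion cannot be told apart there. AT2G07739 read 5.58 and 5.56 in OsRR6ox and 6.97 and 7.04 in the wild type. AT2G07707 read 7.70 and 8.06 in OsRR6ox and 9.00 and 8.86 in the wild type. The 16 mitochondrion-encoded genes measured had a median difference of -0.43, where the median over all probe sets was -0.04. Since a gap of at least 0.8 chose both loci, their differences are not compared with that median. The part of mitochondrial transcripts in these signals was not tested.

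A second probe set was available as a separate readout for 1 further gene. AT1G51270 read 4.84 and 5.54 in OsRR6ox and 6.69 and 6.57 in the wild type on the probe set that met the rule. Its other probe set read 5.23 and 5.50 in OsRR6ox and 6.22 and 6.46 in the wild type, again with no overlap between genotypes, and did not pass (difference -0.97, limma adjusted p = 0.0778). Probe sets of 1 gene on the same arrays share their RNA and are not replicates.

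Chromosome 1 held 35 of the 96 genes, or 36.5%, against 25.9% of all locus-coded probe sets. Chromosome 4 held 9.38%, against 14.4%. On chromosomes 2, 3 and 5 the shares of the 96 genes were 13.5%, 18.8% and 21.9%, against 16.4%, 20.4% and 22.5% of the locus-coded probe sets. These shares were not tested. Gene positions were taken only as an order along the TAIR10.1 reference.

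There were 5 pairs of members within 10 genes of each other. The pairs AT5G52750 with AT5G52760 and AT1G62770 with AT1G62780 are direct neighbours. AT5G52750 and AT5G52760 both encode heavy-metal-associated domain proteins, small proteins built on a metal-binding fold. AT5G52760 read 4.92 and 5.86 in OsRR6ox, against 7.92 and 7.72 in the wild type. AT5G52750 read 6.97 and 7.68 in OsRR6ox and 8.88 and 8.57 in the wild type. In both genes OsRR6ox replicate 1 was the lowest array, and wild type replicate 1 the highest. Neighbouring genes of like sequence may share probe signal, which was not tested.

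The pair AT5G37990 and AT5G38030 lies on chromosome 5 with 5 genes between them. AT5G37990, of the SABATH methyltransferase type that adds methyl groups to small plant acids, read 5.61 and 5.64 in OsRR6ox and 8.49 and 7.32 in the wild type. AT5G38030, a MATE-type efflux carrier, read 6.03 and 6.05 in OsRR6ox and 7.76 and 6.89 in the wild type. Next to AT5G38030 lies AT5G38020, which meets the same gap but is left out by the rule, and which fell (difference -3.82, limma adjusted p = 0.00236). Wild type replicate 1 was above replicate 2 in AT5G37990 by 1.18 and in AT5G38030 by 0.87.

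To see whether differences extended along the chromosome, the nearest gene on each side with a probe set of its own was taken for each of the 96 genes, leaving out the 96 themselves. This gave 187 genes, 84 of them directly next to a member. Their median difference was -0.08, against -0.04 over all probe sets, and 65.2% had a lower mean in OsRR6ox, against 59.0% of all single-gene probe sets. Of the 187 genes, 2 were called lower, or 1.07%, where 0.488% of all probe sets were, and 3 were called higher, where 0.813% of all probe sets were. The 2 called lower were AT5G38020 and AT3G01190, both loci that meet the gap and that the rule leaves out. Genes that met the rule could not appear among these neighbours. The 3 called higher were AT5G20740 (difference 2.09, limma adjusted p = 0.00676), AT4G31530 (difference 1.45, limma adjusted p = 0.0252) and AT5G41850 (difference 0.94, limma adjusted p = 0.0451).

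**Figure D4:**
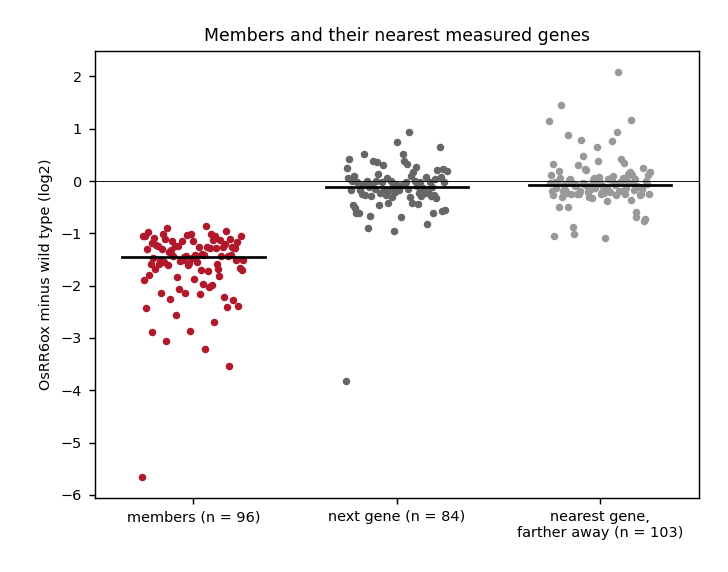
OsRR6ox minus wild type difference (log2) of the 96 members, of the 84 measured genes directly next to one and of the 103 nearest measured genes farther away, 1 point per gene with the median as a black bar. The genes next to a member have a median of -0.11, against -0.04 over all probe sets. The median of -1.45 for the members follows from the rule that chose them.

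The replicates of the wild type differed more in these genes than those of OsRR6ox. The median distance between replicates was 0.15 in OsRR6ox and 0.30 in the wild type, whereas over all locus-coded probe sets it was 0.15 in OsRR6ox and 0.17 in the wild type. In 65 of the 96 genes the wild type arrays were further apart than the OsRR6ox arrays. Wild type replicate 1 was the higher wild type array in 68 of the 96 genes, or 70.8%, against 52.1% of locus-coded probe sets and 48.6% of those in the mirrored set that was higher in OsRR6ox. In 11 genes wild type replicate 1 was above replicate 2 by at least 0.8, and in 2 genes, AT5G55570 and AT4G19430, it was below by as much. The rule compares the lower wild type value with the higher OsRR6ox value, so it sets no limit on the other array of each genotype. The distances come from the same values that the rule used, so they are a description. In 20 of the 96 genes both OsRR6ox arrays lay at background. The part of the difference between the wild type arrays in the results was not tested beyond leaving out each array.

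**Figure D5:**
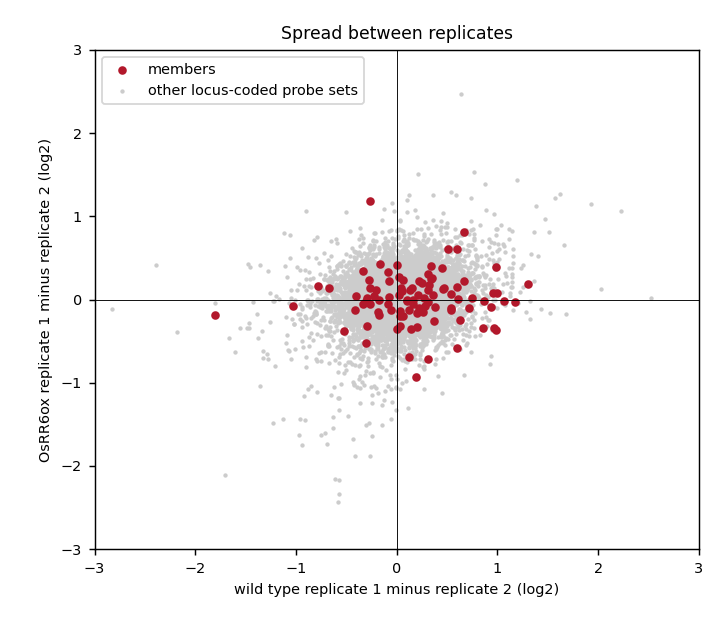
Difference between replicates 1 and 2 (log2) in OsRR6ox (vertical axis) and in the wild type (horizontal axis) for the 96 members in red and the other locus-coded probe sets in grey, of which 3 lie outside the axes. The members spread mainly to the right, where wild type replicate 1 is higher.

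Leaving out wild type replicate 1 gave a median difference of -1.32 over the 96 genes, and leaving out wild type replicate 2 gave -1.50. The number of the 96 genes called lower was 54 with all arrays and 7 without either one of the OsRR6ox arrays. Of all probe sets, 0.0396% were called lower without OsRR6ox replicate 1 and 0.0440% without OsRR6ox replicate 2. Of the 96 genes, AT3G48640, AT5G15360, AT2G35820, AT3G28270, AT2G40960 and AT2G24550 were called under both, AT3G60420 without OsRR6ox replicate 1 and AT5G52760 without OsRR6ox replicate 2. With the replicate number as a block, 14 of the 96 genes were called lower, where 0.127% of all probe sets were.

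At the threshold of the rule, the genes just inside were AT1G67800, a copine-type protein, with a gap of 0.803, AT3G16530 with 0.801 and AT2G07707 with 0.801. Just outside lay AT1G49750 with 0.799, AT5G35940 with 0.794 and AT1G66880 with 0.792. AT1G49750 read 8.91 and 8.75 in OsRR6ox and 10.30 and 9.70 in the wild type, a difference of -1.17 that lies close to that of AT3G16530 at -1.18. The threshold thus cuts through a continuous range.

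Few genes of the other lists have a probe set with a gene name of its own. Of 10 type-A response regulators 2 were measured and 0 passed, with RR16 at -0.39 (limma adjusted p = 0.362) and ARR15 at -0.15 (limma adjusted p = 0.805). Of 15 genes of salicylic acid signalling and defence only SAG101 was measured, at 0.14 (limma adjusted p = 0.851). Of 8 genes of the marneral and thalianol clusters 2 were measured, both among the loci left out by the rule, of which AT5G47980 fell (difference -2.39, limma adjusted p = 0.0299) and AT5G47950 differed by 0.04 (limma adjusted p = 0.969). Of 18 root markers 3 were measured. The root hair expansin gene EXPA7 rose (difference 1.39, limma adjusted p = 0.0392), EXPA18 differed by 1.11 (limma adjusted p = 0.103) and PYK10, a beta-glucosidase of root ER bodies, by -0.21 (limma adjusted p = 0.519). Of 21 markers of photosynthetic tissue 2 were measured and 0 passed, LHCB4.1 at 0.17 (limma adjusted p = 0.641) and the Rubisco activase gene RCA at -0.38 (limma adjusted p = 0.387). The root markers averaged 9.78 and 9.94 in OsRR6ox, against 9.22 and 8.97 in the wild type, and those of photosynthetic tissue 13.27 and 13.53 in OsRR6ox, against 13.43 and 13.56 in the wild type. Markers of both kinds stood well above background in all samples, and the part of organ proportions in the 96 differences was not tested. Over all probe sets, 3407 had an unadjusted p under 0.05 in limma.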

How the data were processed

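Each of the 4 arrays has a column of log2 expression values for 22810 probe sets in the table the authors deposited. The submitters' processing notes name R 3.4.0. Background correction, summarisation and normalization: not given in the sources used here. Without 64 control probe sets, 22746 remained, of which 13513 carry 1 gene, 503 carry several and 8730 have no gene name here. Symbols follow the TAIR10.1 reference table, matched by gene identifier. For genes with several probe sets, the brightest stood for lists and neighbours.

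Genotypes were compared with lmFit and eBayes of limma 3.58.1 (R 4.3.3, two-sided). P-values were adjusted by Benjamini-Hochberg over all 22746 probe sets, with 0.05 as threshold, and reflect only the spread between these samples. With 2 arrays a genotype precision is limited (median residual SD 0.145, log2). Values on every array were to be given for the 30 genes with the widest gap, and of lists and neighbours those called or with the smallest p. Other members were named after their values were seen. Members and lists were chosen with earlier results of these data known, and protein types were assigned after the values were seen. Alternatives were other scalings, variance models, filters and thresholds, the replicate number as a block and leaving out each array.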

Additional observations from a re-analysis of the deposited data

How the results depend on the processing

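Across the scalings, filters and left-out arrays run, the median of the 96 genes stayed below 0. It lay between -1.53 and -1.32 except after centring on 42 spike-in controls. With an array left out the rule itself fixed the sign, since both wild type values of each gene exceed both OsRR6ox values. The spike-in centring shifted all probe sets to a median of 0.49, gave the 96 genes a median of -0.92 and left 24 of them past the gap. This centring moves all probe sets of an array alike, so it leaves their differences relative to one another as they were. The spike-in controls themselves averaged 8.45 and 8.43 in OsRR6ox and 8.80 and 9.14 in the wild type. Of all probe sets 111 were called lower, against 209 after median centring, 303 at adjusted p under 0.10, 16 at adjusted p under 0.01 and 29 with the replicate number as a block. Of the 96 genes 54 were called lower, against 83 after median centring, 82 at adjusted p under 0.10, 10 at adjusted p under 0.01 and 14 with the block. Leaving out 1 array gave 9 to 248 lower calls over all probe sets and 7 to 70 among the 96 genes, the lowest without an OsRR6ox array. Without wild type replicate 2 there were 248 over all probe sets.

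A gap of at least 0.6 kept 178 genes, and a gap of at least 1.0 kept 64. Neighbouring genes called lower numbered 2, 1 after spike-in centring, 1 with the block, and 1 to 3 with an array left out. List genes other than members called in either direction numbered 2, 4 after spike-in centring and 0 with the block. Of all 22746 probe sets, 185 were called higher in the main fit, 2863 after spike-in centring and 76 with the block. Those called lower numbered 111, 150 and 29, and their number also changed widely with an array left out, as given above. Nothing is therefore read from the list counts or from the neighbour counts. Replicates of the same number deviated together across probe sets (r = 0.259), but with only 2 numbers this does not show that they pair the samples. The causes were not tested. No counts over annotation families were made, since 0 of 40 family words occurred in the reference names of 2 or more members, and promoter motifs were not searched. Dim genes have differences limited by array background.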
